A study of Mus musculus with 9 samples.

Results

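In HC11 cells, an epithelial line from mouse mammary gland, 48 of the 55228 genes in the table were expressed in the parental cells (*WT*) and in *Vangl2 KD2* but were all but absent from *Vangl2 KD1*. They were chosen on the measured levels. A gene was kept when it had more than 1 CPM (counts per 1000000 counts in its library) in each of the 3 *WT* and the 3 *KD2* cultures, and a mean below 0.2 CPM over the 3 *KD1* cultures. The 48 genes are 0.417% of the 11505 genes that passed the first of these limits. With the limits applied the other way round, 25 genes were silenced in *KD2* only, and 25 genes expressed in *WT* were lost in both lines. Because the levels in *KD1* chose the genes, their loss in *KD1* is described here and was not tested.

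The cultures were undifferentiated HC11 cells, in medium with serum, insulin and EGF, and polyadenylated RNA was sequenced. The paper's methods place the harvest just short of full confluence, while its results call the cells confluent. *WT* is the uncloned parent. *KD1* and *KD2* were made in it with Cas9 and a guide to *Vangl2* each, together with a repair template that carries stop codons, and each is the progeny of a single colony, so that an effect of the edit and a property of the clone cannot be told apart. The sample labels call both lines knockouts, and no clone made without a *Vangl2* guide was analysed here. Libraries held 20030410, 25505223 and 20944890 counts in *WT*, 27896032, 26542868 and 25514438 in *KD1* and 23601785, 28360592 and 19231428 in *KD2*. Nothing in the labels says how the 3 cultures of a line were separated, so p-values measure the spread between these cultures.

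*Vangl2* itself, a core component of planar cell polarity, had 66, 99 and 86 counts in *WT*, 75, 48 and 69 in *KD1* and 90, 118 and 90 in *KD2*. Its count was lower in *KD1* than in *WT* (log2 fold change -0.63, SE 0.171, adjusted p = 0.0058, edgeR) and did not pass the test in *KD2* (0.05, SE 0.162, adjusted p = 0.81). Counts over the whole gene do not show an inserted stop codon. By immunoblot, the paper reports almost no VANGL2 protein in *KD1* and a much reduced amount in *KD2*. The 7 epithelial markers examined, keratins, *Epcam*, *Cdh1* and *Cldn4*, were above 1 CPM in all 9 cultures, with *Krt5* at a mean of 2070 CPM in *WT*, 2088 in *KD1* and 1148 in *KD2*. The other 6, in *WT*, *KD1* and *KD2*, were at 21.5, 612 and 20.1 CPM for *Cldn4*, 677, 866 and 451 for *Cdh1*, 539, 659 and 452 for *Epcam*, 122, 197 and 144 for *Krt18*, 154, 171 and 283 for *Krt8*, and 1493, 1359 and 864 for *Krt14*. *Cldn4* thus stood far higher in *KD1* than in the other lines. *Krt14* was a little lower in *KD1* than in *WT* while *Krt5* was not, and both were lowest in *KD2*. These marker levels were compared without a test. The part of these levels in the loss of the listed genes was not tested. In bulk RNA, fewer cells that express a gene and less of its RNA per cell cannot be told apart, and this holds for every level below.

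*WT* replicate 1 and *KD2* replicate 3 stood apart from the other cultures of their lines. In a chi-square comparison of counts over genes, *WT* replicate 1 differed from the other *WT* cultures by 14.5 and 11.9 per degree of freedom, against 3.67 between replicates 2 and 3. *KD2* replicate 3 differed by 19.6 and 24.9, against 1.84 between replicates 1 and 2. The *KD1* cultures differed by 1.42 to 1.91. *WT* replicate 1 was the lowest of the *WT* cultures for 25 of the 48 genes, so results in *KD2* are also given without these libraries.

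The genes include 2 groups with a shared biology. Granzymes are serine proteases that cytotoxic lymphocytes store in granules and release into target cells, and in the mouse most of them sit in a cluster with mast cell proteases and cathepsin G. Collagens are the main structural proteins of extracellular matrix. Fibrillar chains such as those of types III and V form the fibres of stroma, and cells that have gone through an epithelial to mesenchymal transition typically raise them. The remaining genes are described by role, by annotation or by position.

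The granzyme genes *Gzmc*, *Gzmd*, *Gzme*, *Gzmf* and *Gzmg*, and the basophil protease gene *Mcpt8* lie together on the minus strand of chromosome 14, from 56082166 to 56234656 of GRCm38, a span of 152.491 kb. They are the tightest group of genes on the list, and the 120 bases around each start (100 before it and 20 from it on, RefSeq, GRCm38.p6, minus strand) are shown because those of the granzymes are close copies of each other. Capitals mark TTTAAA, which resembles the TATA box, and TGACGTCA, the cyclic AMP response element, both searched on both strands. The windows run from chr14:56085178-56085297 (*Mcpt8*), chr14:56120606-56120725 (*Gzme*), chr14:56132574-56132693 (*Gzmd*), chr14:56159560-56159679 (*Gzmg*) and chr14:56211388-56211507 (*Gzmf*) to chr14:56234638-56234757 (*Gzmc*), and hold the promoter and the first bases of the transcript.
Mcpt8: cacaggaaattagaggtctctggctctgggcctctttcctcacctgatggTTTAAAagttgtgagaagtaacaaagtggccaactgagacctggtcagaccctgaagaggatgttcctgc
Gzme: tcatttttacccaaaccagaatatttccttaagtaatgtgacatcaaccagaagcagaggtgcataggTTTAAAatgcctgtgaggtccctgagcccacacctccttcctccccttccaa
Gzmd: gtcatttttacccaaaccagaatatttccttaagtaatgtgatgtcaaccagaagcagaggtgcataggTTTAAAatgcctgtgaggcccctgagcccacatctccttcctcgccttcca
Gzmg: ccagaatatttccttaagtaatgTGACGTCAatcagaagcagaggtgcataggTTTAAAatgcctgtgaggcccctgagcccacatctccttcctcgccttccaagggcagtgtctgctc
Gzmf: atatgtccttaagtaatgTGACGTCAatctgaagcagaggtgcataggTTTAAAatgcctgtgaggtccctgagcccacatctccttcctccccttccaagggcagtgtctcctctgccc
Gzmc: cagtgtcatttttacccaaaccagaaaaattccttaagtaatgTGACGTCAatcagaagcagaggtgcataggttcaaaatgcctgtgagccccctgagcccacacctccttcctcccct

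TTTAAA stood in all of these windows apart from that of *Gzmc*, and TGACGTCA in those of *Gzmc*, *Gzmf* and *Gzmg*. Over the full window of 250 bases before and 50 after the start, *Gzmd* and *Gzme* were identical at 93.4% of aligned positions, *Gzmf* and *Gzmg* at 84.8%, and the least alike granzymes, *Gzmc* and *Gzmf*, at 74.6%. *Mcpt8* reached 50.7% to 53.4% with the granzymes.

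The run of 6 genes held 656, 832 and 763 counts in *WT*, 2, 4 and 3 in *KD1* and 1151, 1454 and 1041 in *KD2*. As a sum this was 32.8, 32.6 and 36.4 CPM in *WT*, 0.0717, 0.151 and 0.118 CPM in *KD1*, and 48.8, 51.3 and 54.1 CPM in *KD2*. Every gene of the run was near 0 in every *KD1* culture. *Gzmc*, the most abundant, had 284, 356 and 312 counts in *WT*, 0, 2 and 1 in *KD1* and 387, 552 and 424 in *KD2*. *Gzme* had 78, 119 and 106 counts in *WT*, 0, 1 and 0 in *KD1* and 141, 176 and 120 in *KD2*. *Gzmd* had 67, 96 and 106 in *WT*, 0, 1 and 0 in *KD1* and 108, 129 and 81 in *KD2*. For these 3 granzymes the levels in *KD2* stayed near or above those of the parent.

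The other 3 genes of the run went different ways in *KD2*. *Gzmf* had 84, 93 and 75 counts in *WT*, 0, 0 and 1 in *KD1* and 431, 502 and 349 in *KD2*, and rose in *KD2* by 2.14 on the log2 scale (SE 0.116, adjusted p = 2.2e-09, edgeR). *Gzmg* had 71, 98 and 82 counts in *WT*, 1, 0 and 0 in *KD1* and 52, 61 and 41 in *KD2*, and fell by 0.91 (SE 0.162, adjusted p = 0.00020). *Mcpt8* had 72, 70 and 82 counts in *WT*, 1, 0 and 1 in *KD1* and 32, 34 and 26 in *KD2*, and fell by 1.50 (SE 0.20, adjusted p = 1.6e-05). All *KD2* cultures of *Gzmf* lay above, and all those of *Gzmg* and *Mcpt8* below, every *WT* culture in CPM. *Gzmc* changed by 0.32 (SE 0.113, adjusted p = 0.024), a change that missed an adjusted p of 0.05 when *WT* replicate 1, *WT* replicate 2 or *KD2* replicate 2 was left out, at adjusted p = 0.051, 0.058 and 0.051. *Gzme* (0.32, adjusted p = 0.059) and *Gzmd* (0.03, adjusted p = 0.90) did not pass. Of the windows of 50 bases in the exons of *Gzmd*, *Gzme*, *Gzmf* and *Gzmg*, 19.4% to 21.9% also occur in another gene (4.14% for *Gzmc*), so part of their reads may be counted on a neighbour or lost, and the split between them is uncertain.

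**Figure D1:**
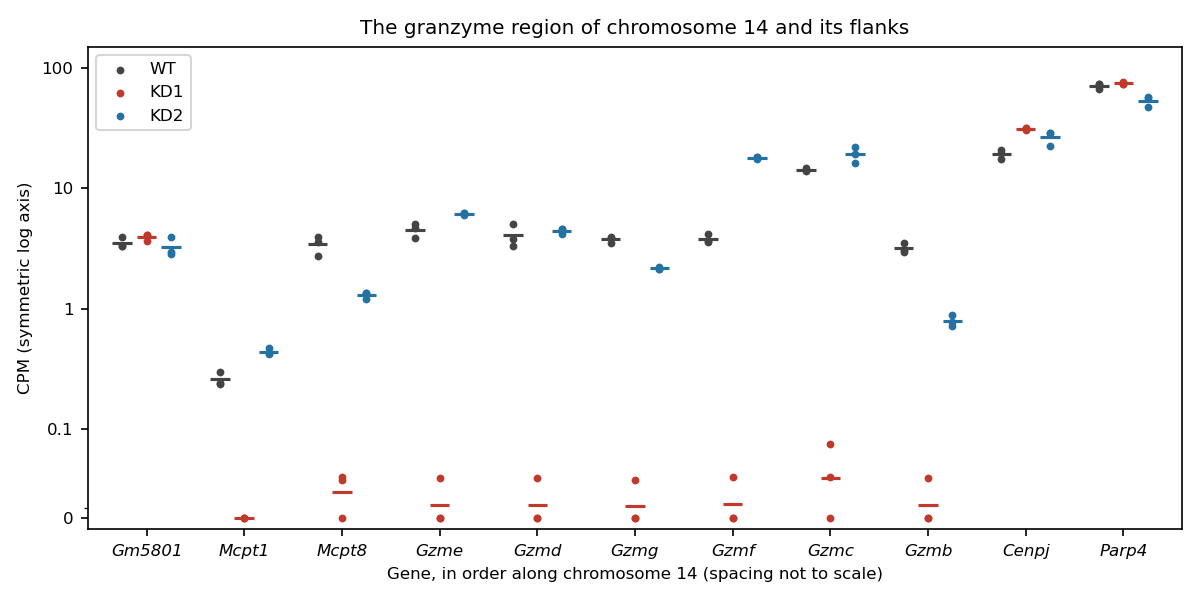
CPM in each culture (points) and the mean of the line (bar) for the genes of the chromosome 14 granzyme region with at least 20 counts in all, in order along the chromosome, on a symmetric log axis. From *Mcpt1* to *Gzmb* every *KD1* culture sits near 0, while *Gm5801*, *Cenpj* and *Parp4* on either side do not.

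The loss did not stop at the genes that met the limits. *Gzmb*, next to *Gzmc* and chosen here after its values were seen, had 62, 75 and 74 counts in *WT*, 0, 1 and 0 in *KD1* and 17, 25 and 15 in *KD2*. It missed the list because its mean in *KD2* was 0.794 CPM, and it fell in *KD1* by 7.49 and in *KD2* by 2.10 on the log2 scale (adjusted p = 2.2e-09 and 8.8e-07, edgeR). *Mcpt1*, on the other side, had 6, 6 and 5 counts in *WT*, 0 in each *KD1* culture and 11, 12 and 8 in *KD2*. The flanks did not follow. The pseudogene *Gm5801* had 67, 100 and 69 counts in *WT* and 102, 108 and 104 in *KD1*, and *Cenpj*, a centriole gene, had 354, 529 and 411 in *WT* and 849, 849 and 816 in *KD1*. *Gzmm*, a granzyme gene on chromosome 10, had 23, 28 and 16 counts in *WT*, 14, 14 and 31 in *KD1* and 21, 26 and 10 in *KD2*, and did not pass the test in *KD1* (log2 fold change -0.42, adjusted p = 0.31) or *KD2* (-0.45, adjusted p = 0.27).

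Apart from *Gzmb*, the markers of cells that usually carry granzymes were at or near 0. Of 14 genes of cytotoxic lymphocytes and mast cells, chosen after the granzymes were seen, 8 had no count in any culture, among them *Nkg7*, *Gzma*, *Gzmk*, *Cpa3* and *Ms4a2*. The perforin gene *Prf1* had 0, 1 and 0 counts in *WT*. The 14 genes summed to 3.34, 3.25 and 3.96 CPM in *WT*, 0.108, 0.0753 and 0.0392 in *KD1* and 0.805, 1.13 and 1.14 in *KD2*. *Gzmb*, which lies beside the run and was lost with it in *KD1*, held 3.095, 2.941 and 3.533 CPM of the sum in *WT*. *Ptprc*, the pan-leukocyte CD45 gene, had 0, 2 and 0 counts in *WT*. It is 1 of 5 immune markers measured. Another, *Cd68*, was the only one above 1 CPM in every culture, at 4.01 CPM in *WT*, 7.31 in *KD1* and 4.24 in *KD2*.

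The second group was made of collagen chains. Of the 22 collagen genes that passed the limit of 1 CPM in *WT* and *KD2*, 4 met the rule (18.2%, against 0.417% of all genes past that limit). *Col5a1*, the fibrillar chain that helps to start collagen fibrils, had the highest count on the list, with 493, 626 and 499 counts in *WT*, 7, 6 and 2 in *KD1* and 1667, 2049 and 1747 in *KD2*. *Col9a1*, a chain known from cartilage, had 78, 118 and 92 in *WT*, 0, 1 and 0 in *KD1* and 318, 365 and 255 in *KD2*. Both rose in *KD2*, by 1.57 (SE 0.0971, adjusted p = 7.8e-09) and 1.50 (SE 0.121, adjusted p = 1.0e-07) on the log2 scale (edgeR). *Col8a2*, a short-chain collagen of basement membranes such as that of the cornea, had 69, 122 and 89 counts in *WT*, 5, 6 and 3 in *KD1* and 166, 216 and 162 in *KD2* (0.76, adjusted p = 0.00027). *Col3a1*, the type III fibrillar chain, had 59, 80 and 59 in *WT*, 0, 1 and 0 in *KD1* and 79, 68 and 55 in *KD2*, and did not pass the test (-0.17, SE 0.18, adjusted p = 0.43).

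Across the wider family the loss in *KD1* was graded. Of 30 collagen genes tested, 20 were called lower and 3 higher in *KD1*, against 7.49% and 9.34% of all genes tested, and 13 were called higher and 2 lower in *KD2*, against 14.5% and 6.71%. The counts include the 4 chains on the list, whose loss the rule fixed, and without them 16 of 26 chains were called lower in *KD1*. The role lists below likewise count their silenced genes as lower in *KD1*, so each is also given without them. A further 8 chains, named here after their values were seen, were called lower in *KD1* and higher in *KD2*, namely *Col1a2*, *Col2a1*, *Col5a2*, *Col5a3*, *Col6a2*, *Col11a2*, *Col12a1* and *Col27a1*. *Col1a2* had 21, 40 and 17 counts in *WT*, 0 in each *KD1* culture and 71, 98 and 64 in *KD2*, and missed the list only because *WT* replicate 3 was under 1 CPM. *Col11a1*, far more abundant, fell from a mean of 371 CPM in *WT* to 6.63 in *KD1* and stood at 661 in *KD2*, so that it kept a level well above the limit in *KD1*. *Col6a3* was the one chain called lower in both lines. It had 658, 1216 and 822 counts in *WT*, 47, 44 and 46 in *KD1* and 166, 175 and 150 in *KD2*, and fell by 4.53 on the log2 scale in *KD1* (adjusted p = 1.4e-11, edgeR) and by 2.64 in *KD2* (adjusted p = 8.7e-10). *Col8a1*, *Col15a1* and *Col4a4* were the 3 chains called higher in *KD1*. The basement membrane chains *Col4a1* and *Col4a2* stayed between 258 and 601 CPM in all lines, while *Col4a5*, another basement membrane chain, fell from 140 to 60.0 CPM in *KD1* (log2 fold change -1.21, adjusted p = 2.8e-09, edgeR).

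**Figure D2:**
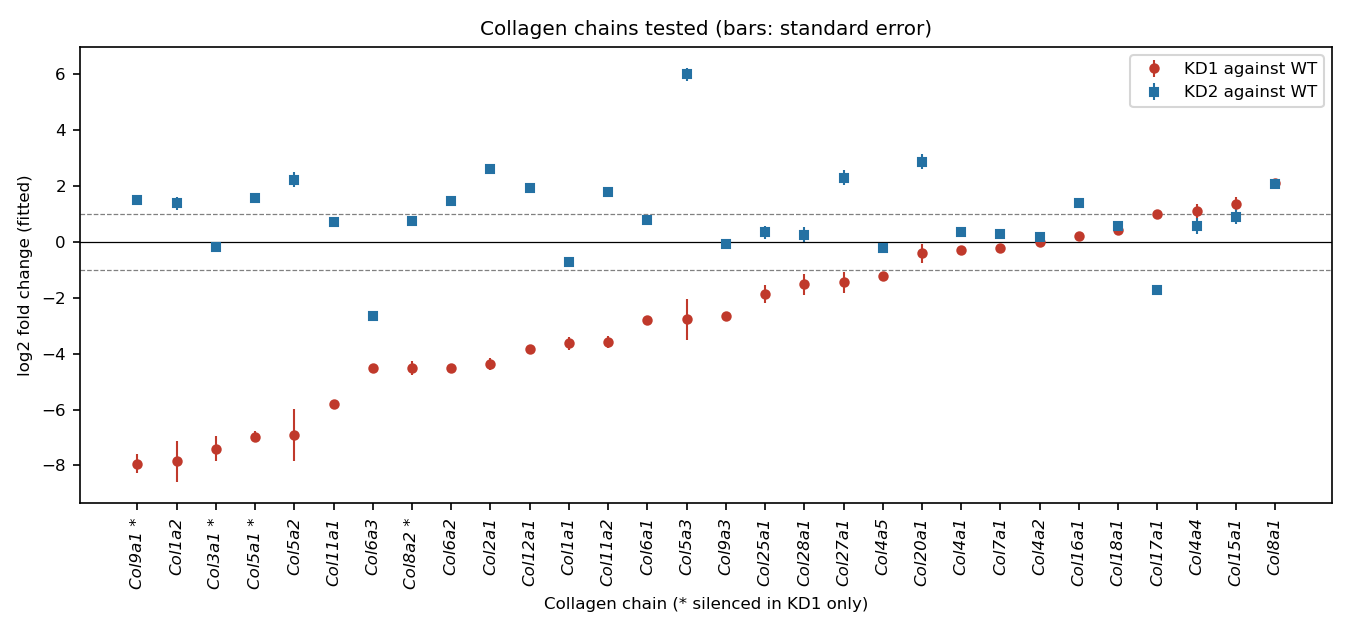
Fitted log2 fold change with its standard error for the 30 collagen chains tested, in *KD1* (circles) and *KD2* (squares) against *WT*, in order of the change in *KD1*. The 4 starred chains are on the list, so the rule fixed their loss in *KD1*. With them, 20 chains were called lower there. Fits against a line with no count (*Col1a2*, *Col5a2* in *KD1*) depend on the prior count.

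Fibroblast markers were measured beside the collagens. The summed level of a list of 6, which holds *Col1a1* and *Col1a2*, was 13.6, 19.4 and 16.8 CPM in *WT*, 9.82, 8.82 and 7.84 in *KD1* and 91.9, 93.0 and 102.7 in *KD2*. The lower sum in *KD1* came from *Col1a1* (6.88 CPM in *WT*, 0.553 in *KD1*) and *Col1a2*, which are collagens themselves, and in smaller part from *Pdgfrb* (0.805 CPM in *WT*, 0.137 in *KD1*), while *Pdgfra* was at 7.78 CPM in *WT* and 8.12 in *KD1*. The higher sum in *KD2* came mostly from *Pdgfrb*, its most abundant gene (70.4 CPM in *KD2*). *Pdgfra* (17.3 CPM in *KD2*) and *Col1a2* (1.14 in *WT*, 3.26 in *KD2*) had higher levels in *KD2* as well, while *Col1a1* was lower there (4.62 CPM, log2 fold change -0.71, adjusted p = 0.0019, edgeR). *Dcn* and *Lum*, which mark fibroblasts, were at or near 0 in every culture (at most 6 counts). The part of these levels in the collagen values was not tested. Of 36 secreted matrix genes tested, a list that shares many chains with the collagens, *KD1* had 16 called lower and 8 higher (7.49% and 9.34% of all genes tested), and *KD2* had 22 higher and 3 lower (14.5% and 6.71%). Without the silenced *Col3a1*, *Col5a1* and *Prelp*, 13 of 33 were lower in *KD1*.

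Of the other matrix and cartilage genes on the list, *Prelp*, a small leucine-rich proteoglycan that ties basement membrane to connective tissue, had the largest rise in *KD2*. It had 21, 46 and 35 counts in *WT*, 1, 3 and 3 in *KD1* and 1138, 1414 and 962 in *KD2*, a log2 fold change of 4.90 in *KD2* (SE 0.128, adjusted p = 2.2e-12, edgeR). *Prelp* overlaps exons of the gene model *Gm15851* on the other strand, and 8.47% of its exon windows also occur in another gene, so some of its reads may belong elsewhere. *Cnmd*, chondromodulin, a cartilage glycoprotein that inhibits vessel growth, had 255, 461 and 383 counts in *WT*, 2, 1 and 1 in *KD1* and 671, 800 and 570 in *KD2* (0.70, SE 0.11, adjusted p = 7.3e-05). *Adamtsl3*, a secreted ADAMTS-like protein without a protease domain, had 233, 253 and 214 in *WT*, 3, 2 and 3 in *KD1* and 596, 692 and 402 in *KD2* (1.05, adjusted p = 4.6e-07). All 3 genes had every *KD2* culture above every *WT* culture in CPM. *Adamtsl3* was 1 of 16 genes of the ADAM and ADAMTS family past the limit (6.25%, against 0.417% of all genes). Only sets with a silenced gene are described, and a small set with 1 such gene exceeds 0.417% by that choice. The shares of small sets with 1 silenced gene, here and below, are therefore no sign of enrichment.

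Secreted signals formed the next group. Of the 42 growth factor and antagonist genes past the limit in *WT* and *KD2*, 4 were on the list (9.52%, against 0.417% of all genes past that limit), *Pdgfc*, *Angpt1*, *Nog* and *Igfbp2*. Of 50 such genes tested, *KD1* had 16 called lower and 10 higher, where 7.49% and 9.34% of all genes were, and *KD2* had 17 higher and 10 lower, where 14.5% and 6.71% were. Without the 4 silenced genes, 12 of 46 were lower in *KD1*. *Pdgfc*, a ligand of the PDGF receptor alpha, had 229, 320 and 240 counts in *WT*, 1, 6 and 5 in *KD1* and 526, 639 and 387 in *KD2* (0.76, SE 0.107, adjusted p = 2.3e-05). *Angpt1*, the ligand of the endothelial receptor Tie2, had 26, 32 and 34 in *WT*, 0, 2 and 1 in *KD1* and 225, 313 and 124 in *KD2* (2.60, SE 0.225, adjusted p = 2.1e-07), and 13.3% of its exon windows occur in the gene model *Gm17473* too. *Nog*, noggin, which binds BMPs and keeps them from their receptors, had 34, 48 and 41 in *WT*, 3, 0 and 3 in *KD1* and 44, 56 and 41 in *KD2*, with no difference that passed the test (-0.01, SE 0.214, adjusted p = 0.98). *Igfbp2*, which binds insulin-like growth factors, had 34, 53 and 30 in *WT*, no count in *KD1* and 63, 75 and 68 in *KD2* (0.63, SE 0.204, adjusted p = 0.017). It missed an adjusted p of 0.05 without *WT* replicate 3 (0.53, adjusted p = 0.059) and without *WT* replicate 1 and *KD2* replicate 3 together (0.46, adjusted p = 0.055).

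*Ptx3* and *Lbp* encode secreted proteins of innate immunity. *Ptx3* was the one gene here from a list of cytokines and chemokines (1 of 17 past the limit, 5.88%, against 0.417% of all genes). Of 31 genes of that list tested, 19 were called higher and 3 lower in *KD1* (9.34% and 7.49% of all genes), and *KD2* had 20 higher and 2 lower (14.5% and 6.71%). Without *Ptx3*, 2 of 30 were lower in *KD1*. *Ptx3*, a pentraxin, had 171, 205 and 159 counts in *WT*, 0, 0 and 1 in *KD1* and 688, 887 and 609 in *KD2*, and rose in *KD2* by 1.82 (SE 0.0934, adjusted p = 1.3e-09, edgeR). *Lbp*, the lipopolysaccharide-binding protein, had 22, 26 and 33 in *WT*, 1, 1 and 2 in *KD1* and 148, 190 and 135 in *KD2* (2.33, adjusted p = 4.6e-08). Both rose from low parental levels, and no *KD2* culture overlapped *WT*.

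Among receptors, *Oxtr*, the oxytocin receptor through which myoepithelial cells contract at milk let-down, had 142, 222 and 147 counts in *WT*, 2, 3 and 1 in *KD1* and 100, 115 and 89 in *KD2*. It fell in *KD2* by 0.94 (SE 0.133, adjusted p = 2.7e-05, edgeR). It was the one gene here from a list of basal and mesenchymal markers (1 of 19 past the limit, 5.26%, against 0.417% of all genes). Of that list, 28 genes were tested. *KD1* had 9 of them called lower and 1 higher (7.49% and 9.34% of all genes), and *KD2* had 12 called higher and 3 lower (14.5% and 6.71%). Without *Oxtr*, 8 of 27 were lower in *KD1*. *Fcgrt*, the heavy chain of the neonatal Fc receptor that carries IgG across epithelia, had 32, 36 and 42 in *WT*, 4, 7 and 4 in *KD1* and 300, 338 and 277 in *KD2*, and rose by 2.85 (SE 0.154, adjusted p = 2.1e-09). *Unc5c*, a netrin receptor, had 122, 190 and 159 in *WT*, 0, 1 and 2 in *KD1* and 176, 186 and 86 in *KD2* (-0.29, adjusted p = 0.16), and *Tnfrsf19*, a TNF receptor family member, had 29, 41 and 41, then 1, 0 and 2, then 87, 130 and 74 (1.17, adjusted p = 1.0e-04). In CPM, *Fcgrt* and *Tnfrsf19* lay above *WT* in every *KD2* culture and *Oxtr* below, while *Unc5c* overlapped *WT*.

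Adhesion molecules also diverged. *Cntn2*, contactin 2 of axons, had 135, 204 and 155 counts in *WT*, 0, 1 and 2 in *KD1* and 73, 47 and 45 in *KD2*, and fell by 1.77, the largest fall on the list (SE 0.201, adjusted p = 3.2e-06, edgeR). *Cdh15*, the cadherin of muscle cells, had 37, 78 and 52 in *WT*, 6, 3 and 4 in *KD1* and 794, 943 and 856 in *KD2* (3.78, SE 0.16, adjusted p = 2.1e-10). *Fat4*, a giant atypical cadherin that takes part in planar cell polarity, had 41, 79 and 47 in *WT*, 1, 4 and 2 in *KD1* and 462, 515 and 346 in *KD2* (2.78, SE 0.145, adjusted p = 1.4e-09). *Tenm3*, a teneurin of synapses, had 253, 376 and 228, then 0, 2 and 2, then 510, 591 and 400 (0.61, adjusted p = 0.00032). None of these 4 is in the list of adhesion and guidance genes. Its one gene here is *Unc5c* (1 of 31 past the limit, 3.23%, against 0.417% of all genes). Of the 43 genes of that list tested, 22 were called lower in *KD1* and 8 higher, and 13 were called higher in *KD2* and 12 lower, beside 7.49%, 9.34%, 14.5% and 6.71% of all genes. Without *Unc5c*, 21 of 42 were lower in *KD1*. *Cdh15* was 1 of 6 genes of the *Cdh* family past the limit (16.7%, against 0.417% of all genes), a share above that of all genes by the choice of sets.

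Ion channels and transporters on the list were *Kcnj2*, *Panx3* and *Slc4a4*. From the list of such genes with 25 past the limit, *Kcnj2* alone was silenced (4.00%, against 0.417%). Of its 31 genes tested, *KD1* had 11 called lower and 7 higher (7.49% and 9.34% of all genes) and *KD2* had 5 higher and 6 lower (14.5% and 6.71%). Without *Kcnj2*, 10 of 30 were lower in *KD1*. By gene family, *Kcnj2* was 1 of 11 potassium channel genes past the limit (9.09%) and *Slc4a4* 1 of 177 solute carriers (0.565%). *Kcnj2*, the inward rectifier potassium channel Kir2.1, had 34, 46 and 37 counts in *WT*, 4, 2 and 2 in *KD1* and 275, 276 and 188 in *KD2* (2.45, SE 0.142, adjusted p = 4.1e-09, edgeR). *Panx3*, a pannexin, had 24, 62 and 36 in *WT*, none in *KD1* and 76, 78 and 50 in *KD2* (0.55, adjusted p = 0.056). It passed an adjusted p of 0.05 in 4 of 16 alternatives. *Slc4a4*, the sodium bicarbonate cotransporter, had 125, 152 and 121 in *WT*, 5, 6 and 4 in *KD1* and 138, 144 and 63 in *KD2* (-0.43, adjusted p = 0.038), a change that missed an adjusted p of 0.05 in 9 of 16 alternatives.

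*Barx2*, a homeobox factor of developing epithelium and muscle, was the one gene on the list from 44 expressed transcription factors of lineage and development (2.27%, against 0.417% of all genes past the limit). Of 53 such genes tested, *KD1* had 15 called lower and 5 higher (7.49% and 9.34% of all genes) and *KD2* had 10 higher and 11 lower (14.5% and 6.71%). Without *Barx2*, 14 of 52 were lower in *KD1*. *Barx2* had 239, 377 and 343 counts in *WT*, 1, 3 and 2 in *KD1* and 299, 353 and 294 in *KD2* (-0.21, SE 0.123, adjusted p = 0.14, edgeR). Its *KD2* cultures overlapped *WT*, but without *WT* replicate 1 and *KD2* replicate 3 it was lower in *KD2* (-0.42, adjusted p = 4.3e-05). *H19*, the imprinted noncoding RNA that is transcribed from the maternal allele, was the one gene from 20 expressed imprinted genes (5.00%, against 0.417%). Of 24 imprinted genes tested, 2 were called in each direction in *KD1* (7.49% of all genes were called lower and 9.34% higher). In *KD2*, 4 were higher and 3 lower (14.5% and 6.71% of all genes). Without *H19*, 1 of 23 was lower in *KD1*. *H19* had 29, 74 and 71 counts in *WT*, none in *KD1* and 53, 46 and 42 in *KD2* (-0.49, SE 0.276, adjusted p = 0.14), and was lower in *KD2* once *WT* replicate 1 was left out (-0.76, adjusted p = 0.0072). *Lmcd1*, a LIM domain cofactor, had 34, 47 and 47 in *WT*, 5, 6 and 4 in *KD1* and 324, 424 and 323 in *KD2* (2.86, SE 0.136, adjusted p = 6.1e-10). *Zfp850*, the one gene on the list from 324 zinc finger protein genes past the limit (0.309%, against 0.417%), had 111, 132 and 121, then 1, 1 and 3, then 142, 197 and 95 (0.02, adjusted p = 0.90). *Nrep*, a small cytoplasmic protein first described in regenerating neurons, had 23, 44 and 25, then 4, 4 and 6, then 539, 685 and 401 (3.92, SE 0.142, adjusted p = 5.0e-11).

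A further 7 protein coding genes belong to none of these groups. *Samd5*, which encodes a protein with a SAM domain, had 125, 145 and 114 counts in *WT*, 1, 0 and 1 in *KD1* and 641, 765 and 373 in *KD2*, and rose in *KD2* by 1.98 (SE 0.137, adjusted p = 2.4e-08, edgeR). *Insyn1*, a factor of inhibitory synapses, had 46, 53 and 34 in *WT*, 2, 0 and 3 in *KD1* and 146, 160 and 138 in *KD2* (1.54, SE 0.193, adjusted p = 8.2e-06). *Tc2n*, with paired C2 domains, had 65, 86 and 59 in *WT*, 5, 1 and 4 in *KD1* and 150, 200 and 91 in *KD2* (0.84, SE 0.179, adjusted p = 0.00085). These 3 genes lay above *WT* in every *KD2* culture. *Tmtc2*, of a family of enzymes that add mannose to cadherins, had 119, 114 and 104 counts in *WT*, 3, 4 and 3 in *KD1* and 238, 299 and 149 in *KD2* (0.79, SE 0.144, adjusted p = 0.00025). *Elmo1*, a partner of DOCK proteins in Rac activation, had 166, 275 and 207 in *WT*, 4, 2 and 5 in *KD1* and 306, 368 and 219 in *KD2*, and did not pass the test (0.26, SE 0.116, adjusted p = 0.065), though it did in 4 of 16 alternatives. *Sh3rf2*, with SH3 and RING finger domains, had 88, 122 and 103 in *WT*, 0, 2 and 3 in *KD1* and 155, 165 and 103 in *KD2* (0.22, SE 0.157, adjusted p = 0.22). *Naaladl2*, related to glutamate carboxypeptidase, went the other way, with 61, 84 and 58 in *WT*, 0, 0 and 2 in *KD1* and 48, 68 and 22 in *KD2*. It fell by 0.78 (SE 0.247, adjusted p = 0.012), which missed an adjusted p of 0.05 without *WT* replicate 2 (adjusted p = 0.053).

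Of the 48 genes, 43 are annotated as protein coding and 3 as long intergenic noncoding RNA, with *Sorbs2os* annotated as antisense and *Gm43719* as a transcript awaiting experimental support. The noncoding *Gm21718* had 27, 43 and 27 counts in *WT*, 3, 1 and 1 in *KD1* and 883, 1089 and 618 in *KD2* (4.52, SE 0.131, adjusted p = 6.4e-12, edgeR). It overlaps the gene model *4930597G03Rik* on the other strand, and strand was not stated for the counting, so the reads of the pair cannot be told apart. *Gm567* had 38, 57 and 52 in *WT*, 2, 0 and 1 in *KD1* and 53, 68 and 41 in *KD2* (-0.07, adjusted p = 0.76). *Gm43719* had 63, 45 and 55 in *WT*, 1, 3 and 4 in *KD1* and 124, 146 and 79 in *KD2* (0.86, adjusted p = 0.0021). *Sorbs2os*, with 28, 26 and 21 in *WT*, 7, 4 and 4 in *KD1* and 106, 118 and 70 in *KD2* (1.75, adjusted p = 1.8e-06), shares 33.6% of its exon windows with *Sorbs2*, on the other strand, and is uncertain for the same reason. Exons of another annotated gene overlap those of 16 of the 48 genes, *Prelp*, *Fat4* and *Col3a1* among them. The 3 genes known only by a gene model name, *Gm21718*, *Gm567* and *Gm43719*, were among 877 such models past the limit (0.342%, against 0.417%).

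**Figure D3:**
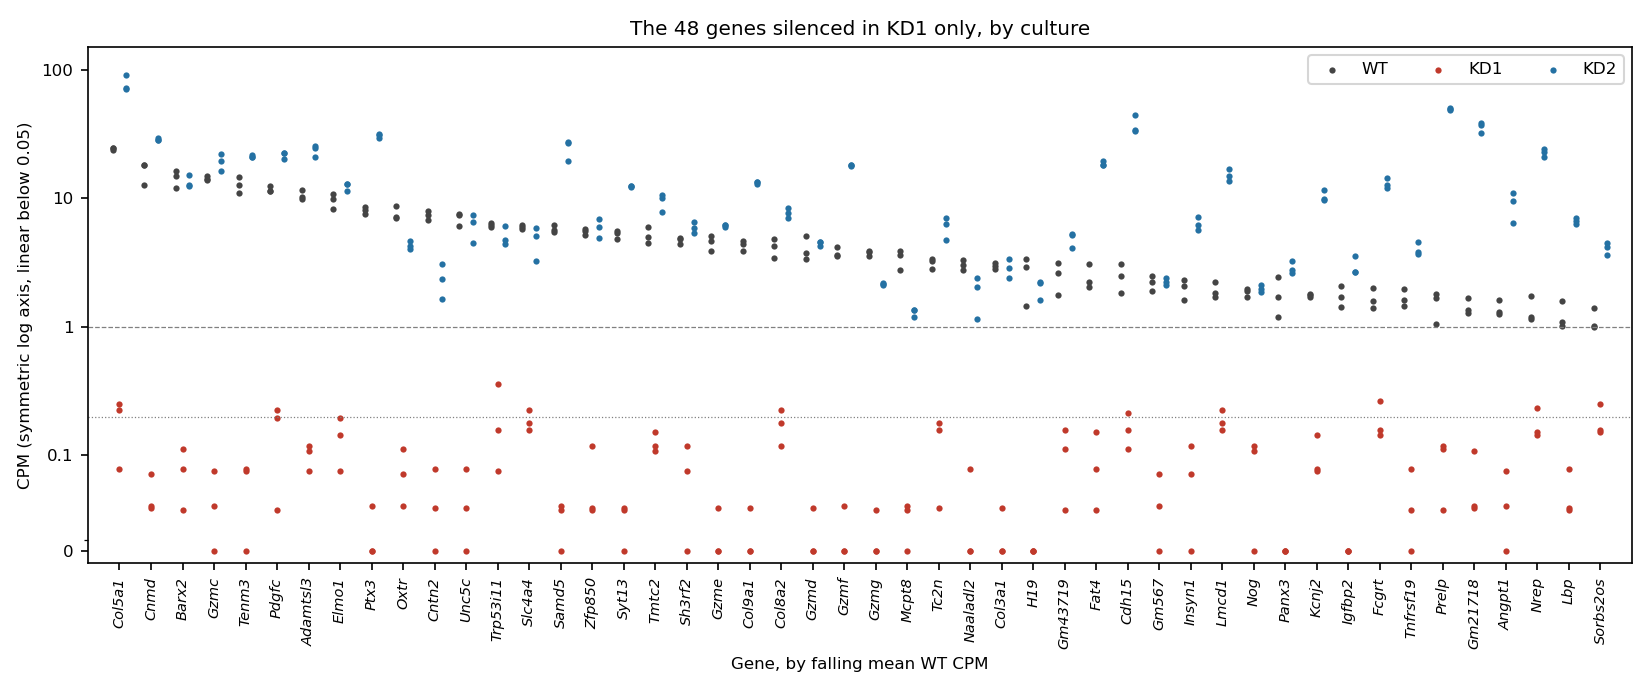
CPM of each of the 48 genes in each culture, in order of the mean in *WT*, on a symmetric log axis (linear below 0.05). The dashed line is the limit of 1 CPM and the dotted line that of 0.2 CPM, which a single *KD1* culture may exceed since it applies to the mean. All *WT* and *KD2* points lie above 1 CPM, as the rule requires.

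What was left in *KD1* amounted to 98, 96 and 102 counts over all 48 genes in the 3 cultures, from libraries of at least 25514438 counts. As summed levels these were 3.51, 3.62 and 4.00 CPM, against 241, 264 and 259 CPM in *WT* and 639, 642 and 647 CPM in *KD2*. The total over the 3 *KD1* cultures ranged from 0 to 16 counts per gene, with a median of 5. *H19*, *Igfbp2* and *Panx3* had no count, which allows up to 0.0375 CPM (3 counts over the 79953338 of the 3 libraries, counting error only), so they were at least 68.8-fold, 46.3-fold and 47.5-fold lower than the mean of *WT*. A further 17 genes had 1 to 3 counts in all, and 16 had more than 3 counts in some *KD1* culture. *Trp53i11*, with 10, 2 and 4 counts in *KD1*, was inside the limit at 0.197 CPM, *Fcgrt* at 0.188, and *Slc4a4* and *Lmcd1* both at 0.187. *Htatip2* (0.201), *Tle2* (0.209) and the imprinted gene *Plagl1* (0.212) lay just outside it. On the other limit, *Sorbs2os* passed at 1.00 CPM in its lowest culture, *Lbp* at 1.02 and *Prelp* at 1.05.

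The parental level of most of these genes was low. Their mean in *WT* ranged from 1.14 to 24.3 CPM, with a median of 3.79, against a median of 41.2 over the 11505 genes that passed the same limit. Per kilobase of exon, the median level in *WT* was 0.909 CPM per kb, against 8.99 for the 11402 of those genes with a known length. *Gzmc*, at 16.0 CPM per kb, was the one gene above that median, followed by *Cnmd* (8.88), *Barx2* (7.30), *Gzme* (4.96), *Gm567* (4.70), *Gzmd* (4.21), *Gzmg* (4.14), *Gzmf* (4.14), *Mcpt8* (3.42) and *Ptx3* (3.00). On this scale the granzymes were among the most abundant genes of the list and *Fat4* (0.143) the least. A gene with a low parental level needs a smaller loss to come under 0.2 CPM, so the limits themselves favour low genes. The spread between cultures was also wider, with a median coefficient of variation of 13.2% in *WT* (5.57% over all genes past the limit, and 39.2% for *H19*) and 10.3% in *KD2* (8.65%).

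Both *WT* and *KD2* had to pass the limit of 1 CPM, which bars a large fall in *KD2* for a gene near that limit, so the balance of rises and falls is partly set by the rule. All 48 genes passed the expression filter of the test. In *KD2*, 20 genes were called higher than in *WT* and 2 lower, *Cntn2* and *Mcpt8* (edgeR, adjusted p under 0.05 with a log2 fold change beyond 1 in size), while 26 were not called. Over all genes that passed the limit in both lines, 7.58% were called higher and 4.97% lower, but their parental levels were higher. Among the 14 genes with a *WT* mean under 2 CPM, 11 were called higher and none lower, where 35.7% and 0% of the 484 genes past the limit at that level were. Among the 34 at 2 CPM or more, 9 were called higher and 2 lower, where 6.34% and 5.19% of 11021 genes were, with a median log2 fold change of 0.32. Over all 48 the median log2 fold change was 0.76 (range -1.77 to 4.90), and 35 of the 48 were above 0. The median was -0.06 for all 11505 genes past the limit in both lines and 0.01 for all genes tested. Every *KD2* culture lay above every *WT* culture for 33 genes and below for 5, where 38.6% and 31.4% of all genes past the limit did so. Without *WT* replicate 1 and *KD2* replicate 3, 22 genes were called higher and 3 lower, with a median of 0.69.

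**Figure D4:**
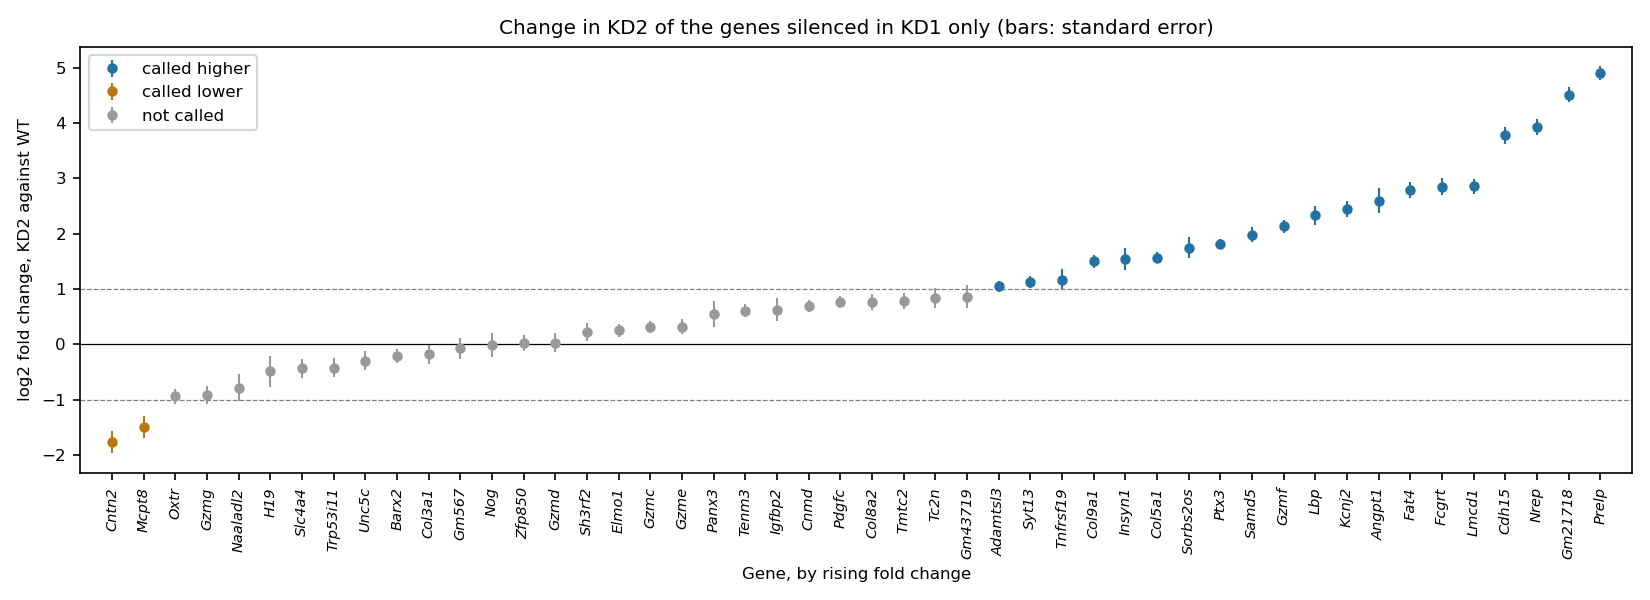
Fitted log2 fold change of *KD2* against *WT* for each of the 48 genes, with its standard error, in rising order. The 20 genes called higher reach 4.90 (*Prelp*), the 2 called lower are *Cntn2* and *Mcpt8*, and dashed lines mark a change of 1 in either direction.

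The 25 genes silenced in *KD2* only, which are bound by the same limit in *KD1*, had a median log2 fold change of 0.58 in *KD1* against *WT*, and 8 of them were called higher and 2 lower in *KD1*, where 5.57% and 4.11% of all genes past the limit in *WT* and *KD1* were. Among the 10 with a *WT* mean under 2 CPM, 4 were called higher and none lower in *KD1*, where 20.3% and 0% of genes at that level were. Among the 15 at 2 CPM or more, 4 were called higher and 2 lower, where 5.01% and 4.26% were.

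The genes were spread over 16 chromosomes, with 9 on chromosome 14, 6 on chromosome 3, 5 on chromosome 1 and none on the X. Apart from the granzyme run, only 2 pairs lay within 500 kb of each other. *Syt13*, a synaptotagmin, and *Trp53i11*, a p53-induced gene, were 231.5 kb apart on chromosome 2. *Syt13* had 97, 141 and 112 counts in *WT*, 1, 1 and 0 in *KD1* and 295, 355 and 235 in *KD2* (1.13, adjusted p = 7.5e-07, edgeR). *Trp53i11* had 120, 164 and 129 in *WT*, 10, 2 and 4 in *KD1* and 111, 124 and 116 in *KD2* (-0.42, adjusted p = 0.040). *Prdm11* between the pair had 22, 31 and 20, then 3, 1 and 0, then 5, 12 and 7. *Lmcd1* and *Oxtr* were 143.3 kb apart on chromosome 6, with *Ssu2* between them near 0 in all lines. The pairs did not move together in *KD2*, where *Lmcd1* rose and *Oxtr* fell.

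The genes beside the silenced ones were examined next. For each gene, up to 2 neighbours on each side within 1 Mb were taken that had more than 1 CPM in every *WT* culture and were not on the list, 131 genes in all. Of these, 15 (11.5%) were called lower in *KD1* and 10 (7.63%) higher, against 6.38% and 5.37% of the 11810 genes above 1 CPM in every *WT* culture. By adjusted p alone, 52 were lower and 34 higher, against 34.9% and 27.0% of those genes. The median log2 fold change was -0.09 (-0.03 over all genes tested). No neighbour was called lower for 31 of the 47 genes that had one. Some neighbours, named after their values were seen, fell with the gene beside them. *Fbln5*, an elastic fibre protein 28 kb from *Tc2n*, had 1262, 1562 and 1364 counts in *WT*, 34, 38 and 34 in *KD1* and 5356, 6380 and 4500 in *KD2*. *Sema3a*, a guidance cue 1.5 kb from *Gm43719*, had 1391, 1841 and 1442 in *WT*, 55, 58 and 60 in *KD1* and 3726, 4557 and 2395 in *KD2*. *Igfbp5*, 5.5 kb from *Igfbp2*, fell from a mean of 1935 CPM in *WT* to 539 in *KD1* and was at 1862 in *KD2*. *Gulp1*, 515 kb from *Col3a1*, had 24, 35 and 30 counts in *WT*, none in *KD1* and 2, 2 and 0 in *KD2*. In the other direction, *Cd82*, beyond *Trp53i11*, rose in *KD1* by 1.87 on the log2 scale (adjusted p = 1.3e-11, edgeR).

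Promoter sequence, which the rule did not use, was compared for the 35 genes with an entry in the RefSeq table (GRCm38.p6). A window of 250 bases before to 50 after the start was called CpG-rich when its observed over expected CpG was above 0.6 and its GC content above 50%. This held for 14 of the 35 (40.0%, Wilson 95% interval 25.6 to 56.4, counting error only), against 73.7% of the 8762 windows of genes past the limit in *WT* and *KD2* and 41.4% of all 20508 windows. The median observed over expected CpG was 0.479, against 0.792, while the median GC content was 59.0%, against 61.7%. The genes past the limit had higher parental levels (median 41.2 CPM in *WT*, against 3.79). No promoter or motif share was compared at matched level, so a link to low expression and one to the loss in *KD1* cannot be told apart. The granzyme windows are near copies, so the 35 are not independent, and without the run of 6 the share was 14 of 29 (48.3%). Within the collagens both kinds were present, as the 120 bases around the starts of *Col5a1* (chr2:27886325-27886444, plus strand) and *Col9a1* (chr1:24177510-24177629, plus strand) show, with CG in capitals.
Col5a1: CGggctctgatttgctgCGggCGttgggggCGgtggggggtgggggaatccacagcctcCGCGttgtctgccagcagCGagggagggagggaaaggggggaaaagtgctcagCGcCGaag
Col9a1: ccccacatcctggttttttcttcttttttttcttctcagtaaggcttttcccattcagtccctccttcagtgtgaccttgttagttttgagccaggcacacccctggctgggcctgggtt

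The stretch of *Col5a1* holds 9 CG and that of *Col9a1* none, and both genes were lost in *KD1* and rose in *KD2*. TTTAAA occurred in 10 of the 35 windows (28.6%), against 8.90% of the genes past the limit and 12.2% of all windows. Of these, 5 belong to the granzyme run, and without the run it occurred in 5 of 29 (17.2%). TGACGTCA occurred in 5 (14.3%), those of *Gzmc*, *Gzmf*, *Gzmg*, *Lmcd1* and *Tenm3*, against 3.58% and 2.22%, and in 2 of 29 (6.90%) without the run. TATAAA occurred in 3 (8.57%, against 6.33% and 13.2%), and TTCNNNGAA, the core of STAT sites, in 4 (11.4%, against 6.64% and 8.07%). These motifs were chosen after the granzyme promoters were read, and were searched on both strands. TTTAAA and TATAAA, which resemble each other, were counted separately. A match describes the letters alone.

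**Figure D5:**
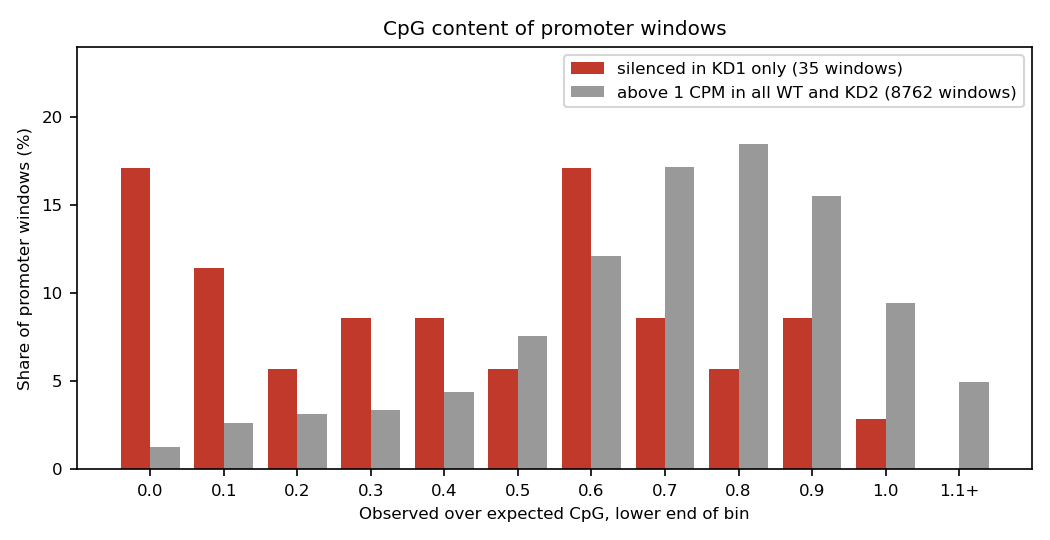
Share of promoter windows (%) by observed over expected CpG, in bins of 0.1, for the genes silenced in *KD1* only (35 windows) and for all genes above 1 CPM in *WT* and *KD2* (8762 windows). The first set is spread from 0 to the bin at 1.0, with a median of 0.479 and none in the highest bin, while the second peaks at 0.8 to 0.9. The sets were not matched for parental level.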

How the data were processed

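RNA-seq counts of 9 cultures (3 each of *WT*, *KD1* and *KD2*) were analysed, grouped by the sample labels, and 0 columns were left without a culture. The deposited values are raw read counts, 1 whole number per gene and culture. Before that they had trimmed reads with fastp, aligned them to GRCm38 with HISAT2 and counted exonic reads per gene with featureCounts of Subread. Strand and the treatment of multi-mapping reads were not given in the sources used here.

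CPM was computed from library totals. Fold changes came from the quasi-likelihood test of edgeR 4.0.16 in R 4.3.3, after filterByExpr over the 3 lines and TMM normalization, fitted to the 9 cultures together, with Benjamini-Hochberg adjustment over 15253 genes. Fold changes are therefore on the TMM scale. A call needed an adjusted p under 0.05 together with a log2 fold change beyond 1 in size. A single named gene was said to rise or fall at an adjusted p under 0.05. DESeq2 1.42.0, other scalings and filters, a replicate block and each culture left out were alternatives. Positions and exon lengths came from GENCODE vM21, which matched all 48 genes, and promoters from RefSeq. For 1 gene, *Tenm3*, the RefSeq window lies over 1 kb from the GENCODE start. The RefSeq start lies 316 to 442 bases from it for *Cntn2*, *Unc5c*, *Tnfrsf19*, *Cdh15* and *Slc4a4*, more than the length of the window. Of these, *Unc5c*, *Tnfrsf19* and *Slc4a4* were counted as CpG-rich.

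The genes, lists and tests were chosen with earlier results of these data known. The named genes were the 12 with the highest *WT* level per kb, up to 6 with the largest called change in each direction in *KD2*, those in a role list, and the 3 on each side of the *KD1* limit. Other genes on the list are given for their roles, and genes outside it were named after their values were seen. List counts without the silenced genes and splits by *WT* level were added after seeing the data. Of 14 role lists and 29 gene families, those with a gene silenced in *KD1* only are described. Many families held none, among them forkhead factors (0 of 20 past the limit) and homeobox cluster genes (0 of 17). The lists of proteases and inhibitors, luminal and secretory markers, receptors and signal regulators, interferon-stimulated genes, germline or methylation-repressed genes, and detoxification genes held none.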

Additional observations from a re-analysis of the deposited data

Results flagged for a closer look

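Genes outside the list that moved in opposite directions in the 2 lines, each called in both, were marked for a closer look, 12 genes in all. The difference between their log2 fold changes (*KD2* minus *KD1*) is given as a description, with no test, since opposite calls chose the genes. They were sought among the collagen chains and the neighbours of the silenced genes.

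Among collagens, the difference was 5.34 for *Col11a2*, 5.75 for *Col12a1*, 3.74 for *Col27a1*, 6.97 for *Col2a1*, 8.76 for *Col5a3* and 5.98 for *Col6a2*. *Col12a1* had 1775, 2575 and 1879 counts in *WT*, 166, 174 and 182 in *KD1* and 9243, 11502 and 6787 in *KD2*. *Col6a2* had 2217, 4000 and 3049 in *WT*, 171, 146 and 159 in *KD1* and 9049, 10641 and 9149 in *KD2*. For *Col1a2* (9.23) and *Col5a2* (9.14), with no count in *KD1*, the fitted difference depends on the prior count.

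Among neighbours, the difference was 7.30 for *Fbln5* beside *Tc2n*, 3.98 for *Sorbs2* and 4.54 for *Gm45457*. *Sorbs2* overlaps exons of *Sorbs2os* on the other strand, so their shared reads cannot be told apart. *Gm45457* lies at a gap of 0 bases from *Sorbs2os*, with no exon overlap found. *Pclo*, a scaffold protein of presynaptic terminals beyond *Gm43719*, went the other way (-7.89), with 25, 40 and 26 counts in *WT*, 610, 605 and 590 in *KD1* and 1, 2 and 4 in *KD2*.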

How the results depend on the processing

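The number of genes silenced in *KD1* only depends on its limits. It was 109 with a floor of 0.5 CPM, which adds *Col1a2* and *Gzmb*, 27 with a floor of 2 CPM, and 105 with a *KD1* ceiling of 0.5 CPM. It was 33 with a ceiling of 0.1 CPM, and 48 with TMM or median-of-ratios scaling, 47 of them shared. It ranged from 42 to 60 with 1 culture left out, lowest without *KD1* replicate 3 and highest without *WT* replicate 1. Genes called higher in *KD2* numbered 19 to 22 under every alternative that kept the fold limit and all 48 genes, and 29 by adjusted p alone, where 7 were lower. Among the 34 genes with a *WT* mean of at least 2 CPM, chosen as a subset after seeing the data, 9 were higher and the median log2 fold change was 0.32. The median log2 fold change was 0.87 with library size alone, which also moved the median of all genes from 0.01 to 0.12, and 0.82 without the granzyme run. CpG-rich promoters fell to 20% under a stricter definition, against 50.1% of genes past the floor.

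Under the replicate block, 20 genes were higher and 2 lower in *KD2*, the median was 0.77, and 15 neighbours were lower in *KD1*. Cultures with the same number did not deviate together (mean correlation 0.00116, against -0.00109 for other pairs), so the numbers were not taken as pairing. Of the 29 named genes, 3 with fold changes close to 0 changed sign. *Gm567* was at 0.039 with library size alone and between -0.16 and 0.041 with 1 culture left out. *Gzmd* was at -0.0022 with a filter of 1 count, -0.045 without *WT* replicate 1 and *KD2* replicate 3, and between -0.085 and 0.24 with 1 culture left out. *Nog* was at 0.0055 with DESeq2, 0.0041 with median-of-ratios factors, 0.10 with library size alone and between -0.063 and 0.058 with 1 culture left out. *Gzmc*, *Igfbp2*, *Slc4a4* and *Trp53i11* missed an adjusted p of 0.05 in some alternatives and *Barx2*, *Gzme* and *H19* passed it in some (20 and 8 combinations of gene and alternative). The cause was not tested. At 0 to 16 counts per gene, *KD1* levels cannot be ranked against each other.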
